A study of Mus musculus with 6 samples.

Results

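The S100 family members described here are 10 genes, chosen by symbol from the 53700 genes listed in an RNA-seq experiment on SL4 cells, with the level of each gene in these libraries and the large difference of S100a4 already known. They are S100a1, S100a3, S100a4, S100a5, S100a6, S100a8, S100a10, S100a11, S100a13 and S100a16, and each symbol named 1 listed gene. SL4 is a mouse colorectal cancer cell line that carries luciferase. Libraries came from 3 samples of SL4 cells without SEMA6A overexpression (control) and 3 of SL4 cells that stably overexpress SEMA6A from a lentivirus (pLV-SEMA6A). Both groups share the luciferase background. The study describes 1 stable pLV-SEMA6A line and names the sequenced control both SL4 and pLV-Control, without describing a control vector. With 1 line in each group, SEMA6A itself and another difference between the lines cannot be told apart. Because the members were chosen with this contrast known, their differences between the groups are given as a description with no p-value, and counts of members past the thresholds of the fit over all genes stand beside the share of all genes past them. The question was whether the rise of S100a4 was shared by its neighbours in the S100 gene cluster.

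S100 proteins are small calcium sensors of the EF-hand type that mostly work as dimers. Calcium binding opens a surface through which they hold a target, such as a myosin heavy chain or an annexin, and several are also released from cells and bind surface receptors such as RAGE (encoded by Ager) and TLR4. In tumours the family is best known for S100A4, a promoter of cell motility and metastasis that is also used as a marker of fibroblasts and of epithelial-mesenchymal transition. Most S100 genes lie side by side in a cluster on mouse chromosome 3, and all 10 members lie on that chromosome. S100a11 and S100a10 form a separate block there, beyond genes such as Flg and Tchh, and are no close neighbours of S100a4. On GRCm38.p6 the 250 bases before S100a11 begin at position 93520246, and those before S100a4 at 90603520.

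Expression was deposited as TPM, which corrects for the length of a transcript and for the total of a library, so levels of different genes can be set side by side but the number of reads behind a value is unknown. Between 19340 and 19463 genes were above 0 TPM in a control library and between 18798 and 18887 in a pLV-SEMA6A library. Differences are on the log2(TPM + 1) scale, pLV-SEMA6A minus control, with the standard error from limma. This scale understates the difference of low genes. Sema6a was listed at 0 in all 3 control libraries, with 98.7, 118 and 112 TPM in pLV-SEMA6A, the direction that the labels give. The epithelial markers Epcam, Krt8, Krt18, Krt19 and Cdh1 were at or near 0, with a sum of 0.13 to 0.43 TPM in control against 0.21 to 0.48 TPM in pLV-SEMA6A, so the defining markers of epithelium were nearly absent from this colorectal cancer line.

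S100a4 (ENSMUSG00000001020), whose protein binds the heavy chain of non-muscle myosin IIA, differed most among the members. It was at 792, 811 and 768 TPM in control, against 3489.9, 3375 and 3317 TPM in pLV-SEMA6A. The lowest pLV-SEMA6A library lay far above the highest control library, and the libraries within a group lay close together. Control averaged 790.3 ± 21.4 TPM and pLV-SEMA6A 3394 ± 87.9 TPM (SD, n = 3 libraries in each group here and in what follows), a ratio of 4.29 and a log2 difference of 2.10 (standard error 0.03). By mean TPM S100a4 ranked 189 among the listed genes in control and 30 in pLV-SEMA6A. Its log2 difference ranked 24 from the top of the 12510 genes that passed a filter on low values, a mean over all libraries of 1 TPM or more.

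The bases just before the starts of S100a4, S100a3, S100a6 and S100a11 are shown. S100a3 and S100a6 are the nearest S100 genes to S100a4 on each side among those that passed the filter. These genes stand for the range of differences in the family, from the lower level of S100a3 to the large difference of S100a4. Each run holds the 250 bases before a RefSeq gene start on GRCm38.p6, written 5′ to 3′ on the strand of the gene. The expression values were made on mm39 per the submitters' processing notes, so these positions belong to the sequences only. Capitals mark matches to the 6 motifs described next.
S100a4, chr3:90603520-90603769, plus strand: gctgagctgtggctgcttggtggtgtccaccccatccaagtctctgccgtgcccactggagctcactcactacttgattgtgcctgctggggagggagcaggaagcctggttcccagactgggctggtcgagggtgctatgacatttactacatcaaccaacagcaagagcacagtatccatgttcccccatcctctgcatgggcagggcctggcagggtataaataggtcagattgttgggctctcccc
S100a3, chr3:90599964-90600213, plus strand, the start nearest S100a4: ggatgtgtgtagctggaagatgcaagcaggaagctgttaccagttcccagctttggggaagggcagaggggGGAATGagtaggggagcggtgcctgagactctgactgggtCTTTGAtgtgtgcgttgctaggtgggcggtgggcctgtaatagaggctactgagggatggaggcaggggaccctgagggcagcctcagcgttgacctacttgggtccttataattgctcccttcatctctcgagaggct
S100a6, chr3:90612644-90612893, plus strand: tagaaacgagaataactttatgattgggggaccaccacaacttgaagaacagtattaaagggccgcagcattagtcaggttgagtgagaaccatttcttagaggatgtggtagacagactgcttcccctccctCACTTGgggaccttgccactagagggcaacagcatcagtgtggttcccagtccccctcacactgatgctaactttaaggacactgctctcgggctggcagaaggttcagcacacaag
S100a11, chr3:93520246-93520495, plus strand: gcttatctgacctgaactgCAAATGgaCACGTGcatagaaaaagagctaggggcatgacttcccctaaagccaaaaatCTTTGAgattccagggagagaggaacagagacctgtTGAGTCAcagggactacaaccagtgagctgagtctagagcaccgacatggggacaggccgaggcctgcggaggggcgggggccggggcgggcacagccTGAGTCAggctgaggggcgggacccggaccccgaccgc

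The motifs searched on both strands were AP-1 (TGANTCA), GAS of the STAT factors (TTCNNNGAA), the core of ISRE, E-box (CANNTG), TEAD (CATTCC) and TCF/LEF (CTTTGA), where N is any base. Of the 10 members, 9 had windows in the table, 13 windows in all, and S100a10 is named only. The window of S100a4 held none of the 6 motifs. GAS and ISRE matches were found in 0 of the 13 windows, where 7.02% and 2.98% of all 32851 windows of this length hold one. An E-box, which 66.2% of all windows hold, was present in windows of 7 members, that of S100a6 starting 117 bases before the gene start. AP-1 matches, held by 6.75% of all windows, occurred for S100a11, at 136 and 38 bases before its start, and for S100a16. The S100a3 window above held TEAD and TCF/LEF matches, which 12.6% and 13.8% of all windows hold, and S100a11 also held a TCF/LEF match. The S100a4 window was 57.2% G or C with 2 CpG, against a median of 52.4% and 6 CpG over all windows. A match is a description of letters and not evidence of binding.

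**Figure D1:**
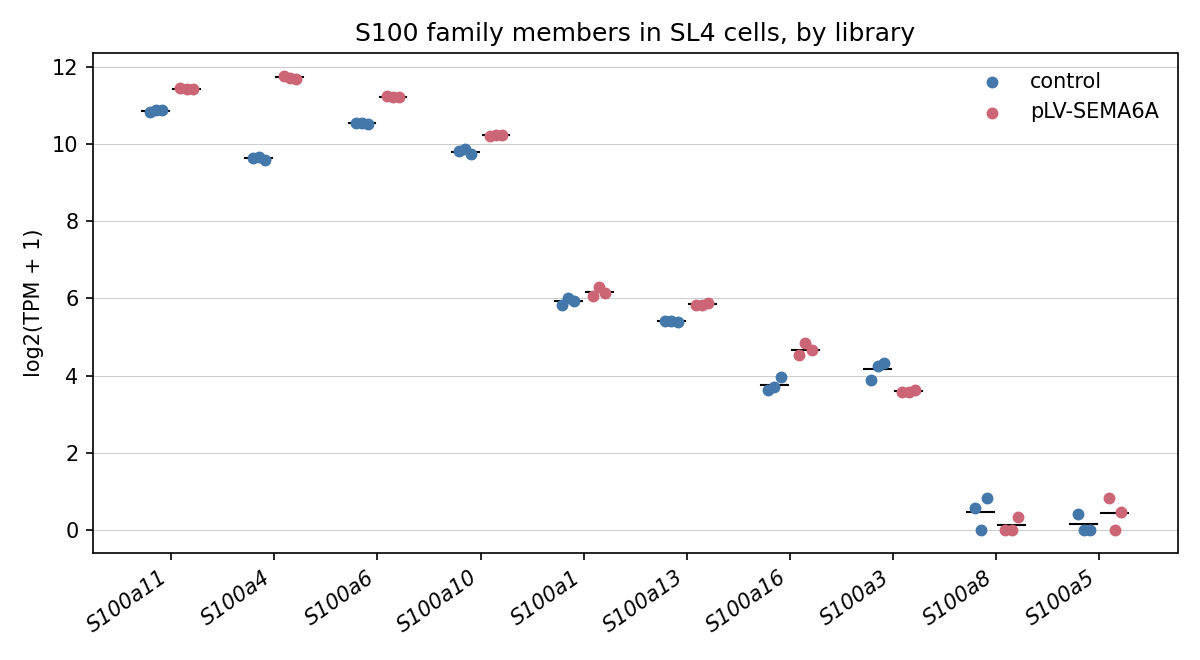
The level of each S100 member as log2(TPM + 1) on the y axis, ordered by mean TPM on the x axis, with 1 point per library (control in blue, pLV-SEMA6A in red) and a bar at the group mean. The groups are separate for 8 members and overlap for S100a8 and S100a5. S100a4 lies below S100a6, S100a10 and S100a11 in control and above all members in pLV-SEMA6A.

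The other abundant members were also higher in pLV-SEMA6A, by less than S100a4. S100a6, or calcyclin, which binds the ubiquitin ligase adaptor CacyBP, was at 1499, 1493 and 1467 TPM in control, against 2404, 2363 and 2390.3 TPM in pLV-SEMA6A. Every pLV-SEMA6A library was above every control library, with a ratio of means of 1.61 and a log2 difference of 0.68 (standard error 0.02). S100a11, a partner of annexin A1 in membrane repair and endocytosis, was the most abundant member in control. It was at 1822, 1873 and 1891 TPM in control, against 2797, 2759 and 2736 TPM in pLV-SEMA6A. The groups did not overlap, and the log2 difference was 0.57 (standard error 0.02), a ratio of 1.48. S100a10, the partner of annexin A2 that does not need calcium for its active shape, was at 904, 929.7 and 847 TPM in control, against 1176, 1198 and 1202 TPM in pLV-SEMA6A. It was higher in every pLV-SEMA6A library, with a ratio of 1.33 and a log2 difference of 0.42 (standard error 0.04).

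These 4 genes made up nearly all S100 transcripts, with 97.3% to 97.6% of the summed member TPM in control against 98.3% to 98.5% in pLV-SEMA6A. The sum of the 10 members was 5164 ± 68.9 TPM in control against 9899 ± 109.9 TPM in pLV-SEMA6A (SD, n = 3), a ratio of 1.92. It took 0.52% to 0.53% of the listed TPM in control libraries and 1.00% to 1.03% in pLV-SEMA6A libraries. S100a4 accounted for 55.0% of the difference in the sum, S100a11 for 19.1%, S100a6 for 19.0% and S100a10 for 6.30%. Its share of the sum was 15.03% to 15.5% in control and 33.8% to 34.8% in pLV-SEMA6A. Without S100a4 the sum was 4374 ± 49.5 TPM in control against 6505 ± 23.1 TPM in pLV-SEMA6A (SD, n = 3), a ratio of 1.49.

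**Figure D2:**
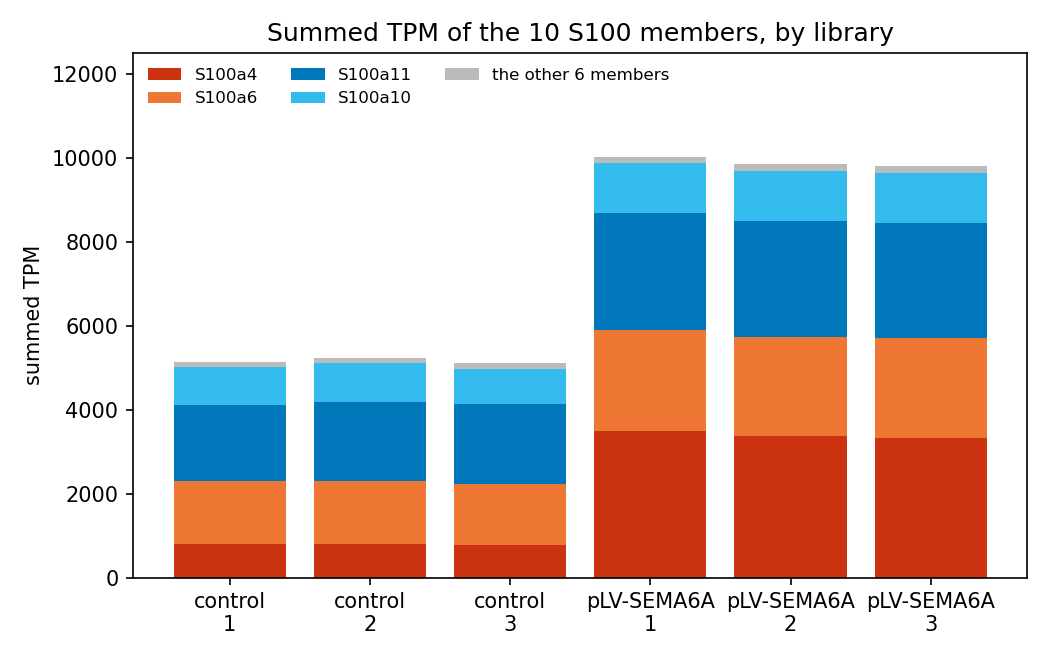
Summed TPM of the 10 S100 members on the y axis, from 0, for each of the 6 libraries on the x axis, with the colours of a bar for S100a4, S100a6, S100a11, S100a10 and the remaining members together. The bars reach 5110 to 5241 TPM in control against 9809 to 10022 TPM in pLV-SEMA6A, and the S100a4 part of the bars grows most.

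Members of middle level differed in both directions. S100a16, a widely expressed member with reduced calcium binding, was at 11.3, 12.1 and 14.6 TPM in control, against 22.1, 27.5 and 24.25 TPM in pLV-SEMA6A. Its groups were separate, and its ratio of 1.94 was next to that of S100a4, with a log2 difference of 0.91 (standard error 0.11). S100a13, which takes part in the release of FGF1 from cells, was at 41.5, 41.4 and 41.1 TPM in control, against 55.4, 55.3 and 58.3 TPM in pLV-SEMA6A. It was higher in every pLV-SEMA6A library, with a log2 difference of 0.44 (standard error 0.04). S100a1, best known from heart muscle, was at 56.3, 63.15 and 60.4 TPM in control, against 65.3, 77.8 and 69.0 TPM in pLV-SEMA6A. The gap between its groups was narrow, and its log2 difference of 0.23 (standard error 0.07) was the smallest in size among the 8 members that passed the filter.

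S100a3, known from the hair cuticle and the direct upstream neighbour of S100a4 among the expressed S100 genes, went the other way. It was at 13.8, 18.1 and 19.1 TPM in control, against 10.95, 10.8 and 11.3 TPM in pLV-SEMA6A. All pLV-SEMA6A libraries lay below all control libraries, and control replicate 1 was the closest to them. The ratio was 0.65 and the log2 difference −0.57 (standard error 0.12). Without control replicate 3 the log2 difference was −0.49, and without control replicate 1 it was −0.71.

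S100a5 and S100a8 were barely detected, and neither reached a mean of 1 TPM. S100a5, a gene of olfactory neurons, is the next gene after S100a4, before S100a6. It was listed at 0.34, 0 and 0 TPM in control, against 0.77, 0 and 0.38 TPM in pLV-SEMA6A. S100a8, which with S100a9 makes the neutrophil protein calprotectin, was listed at 0.49, 0 and 0.78 TPM in control, against 0, 0 and 0.27 TPM in pLV-SEMA6A. The libraries of the groups overlapped for both genes. S100a9, the neighbour of S100a8, was listed at 0 in all 6 libraries.

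Counted together, 8 of the 10 members passed the filter of a mean of at least 1 TPM, 7 of them with all pLV-SEMA6A libraries above all control libraries and 1 with all below. Over all 12510 genes tested, 23.8% were without overlap in the higher direction and 34.7% in the lower, 58.5% in all. At an adjusted p under 0.05 from limma and an absolute log2 difference over 0.5, 4 members were called higher (S100a4, S100a6, S100a11 and S100a16) and 1 lower (S100a3), where 5.12% and 10.8% of all genes were called higher and lower and 15.9% in either direction. Without a minimum difference, 7 members were higher and 1 lower at an adjusted p under 0.05 from limma, where 47.6% of all genes passed in either direction. The median log2 difference of the 8 members was 0.50, and that of all genes −0.06. Since the members were chosen with this contrast known, nothing is read from these counts. With each library centred on its median, S100a10 and S100a13 passed the minimum of 0.5 as well (0.51 and 0.53) and S100a3 no longer did (−0.48), so that 6 members were called higher and 0 lower, and the split over all genes changed from 640 higher and 1347 lower to 1002 and 961. None of the 8 differences changed sign under the alternatives tried.

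Part of the sequence of S100a4 is not its own. Of the 31-base stretches of its GENCODE M21 transcripts, 49.2% also occur in Gm42674, an annotated transcript of 4 exons that joins 2 exon regions of S100a3 to 2 of S100a4. That transcript has 446 bases, 144 shared with S100a3 and 302 with S100a4, so none lies outside these 2 members. Gm42674 was at 8.57, 7.89 and 8.04 TPM in control, against 10.7, 14.5 and 14.8 TPM in pLV-SEMA6A. Its log2 difference was 0.63 (standard error 0.12), and its level was small beside that of S100a4. No p-value is given, because all its bases belong to members chosen with this contrast known. For S100a11, 48.9% of the stretches occur in 6 other genes, and of the 3 that share most Gm12854 was at 5.30 ± 1.53 TPM in control against 3.43 ± 3.03 TPM in pLV-SEMA6A (SD, n = 3) and Gm7665 and Gm29240 were listed at 0 in all libraries. The share was 4.99% for S100a3, 0.424% for S100a10 and 0 for the other 6 members. S100a3 overlaps S100a2 and Gm42674 on the same strand, and how reads were divided among them is not given in the sources used here.

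The 10 further listed genes whose names start with S100 were low, apart from S100pbp, which encodes a binding partner of S100P and is no S100 protein. S100a9, S100g, S100z, S100a7l2 and the pseudogene S100a11-ps were listed at 0 in all 6 libraries. S100a2, S100a14 and S100b were below a mean of 1 TPM, with at most 1.31 TPM in a library. S100pbp was at 26.0 ± 1.23 TPM in control against 23.2 ± 0.99 TPM in pLV-SEMA6A (SD, n = 3) and did not pass (adjusted p = 0.0506 from limma). S100a7a, the mouse psoriasin gene between S100a6 and S100a8, was at 1.79, 1.84 and 1.84 TPM in control, against 0.69, 1.11 and 1.19 TPM in pLV-SEMA6A. It was called lower with a log2 difference of −0.51 (standard error 0.16, adjusted p = 0.0397 from limma), at a level where the unknown number of reads may be small. It passed the filter through control, as its pLV-SEMA6A mean was 0.997 TPM. The call was lost when any 1 of the 6 libraries was left out and when replicate number was added as a block (adjusted p = 0.0844 from limma).

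The flanking genes were read against the shares over all genes. Of 90 genes other than S100 genes within 500 kb of a member in GENCODE M21, 21 were tested, with 3 called higher and 1 lower, where 5.12% and 10.8% of all genes were, and their median log2 difference was 0.02. Without a minimum difference 6 were higher and 7 lower at an adjusted p under 0.05 from limma, where 19.5% and 28.2% of all genes were. The libraries did not overlap for 7 genes in the higher and 7 in the lower direction, where 23.8% and 34.7% of all genes were without overlap. Apart from Gm42674, all tested flanking genes lie before S100a1, so these counts and the median describe that side of the cluster only. Chtop, an mRNA export factor and the last such gene before the cluster, was at 207 ± 5.95 TPM in control against 194 ± 4.07 TPM in pLV-SEMA6A (SD, n = 3), a log2 difference of −0.092 (adjusted p = 0.0470 from limma) that became 0.0012 with each library centred on its median. The called genes were Gm42674, 4933434E20Rik, Gm43712 and Gm16048. As described above, all bases of Gm42674 are shared with S100a3 or S100a4, so it is no separate neighbour of S100a4. Its call, included in the counts above, is therefore no separate result. 4933434E20Rik rose, at 47.8 ± 5.76 TPM in control against 69.2 ± 1.46 TPM in pLV-SEMA6A (SD, n = 3), a log2 difference of 0.53 (adjusted p = 0.00287 from limma) that was 0.43 without control replicate 3. Gm16048, an antisense gene, fell, at 7.65 ± 0.68 TPM in control against 5.003 ± 0.52 TPM in pLV-SEMA6A (SD, n = 3), a log2 difference of −0.53 (adjusted p = 0.00535 from limma), which was −0.46 without control replicate 2, −0.48 without pLV-SEMA6A replicate 2 and −0.43 with each library centred on its median. The pseudogene Gm43712, which overlaps Nup210l on the same strand, was listed at 0 in the control libraries, with 6.37, 6.61 and 2.45 TPM in those of pLV-SEMA6A. It passed the filter only through the pLV-SEMA6A libraries, so nothing is read from its call. The nearest such genes after S100a4 and after S100a10, the pseudogenes Gm19739 and Gm5541, were listed at 0 in all libraries.

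**Figure D3:**
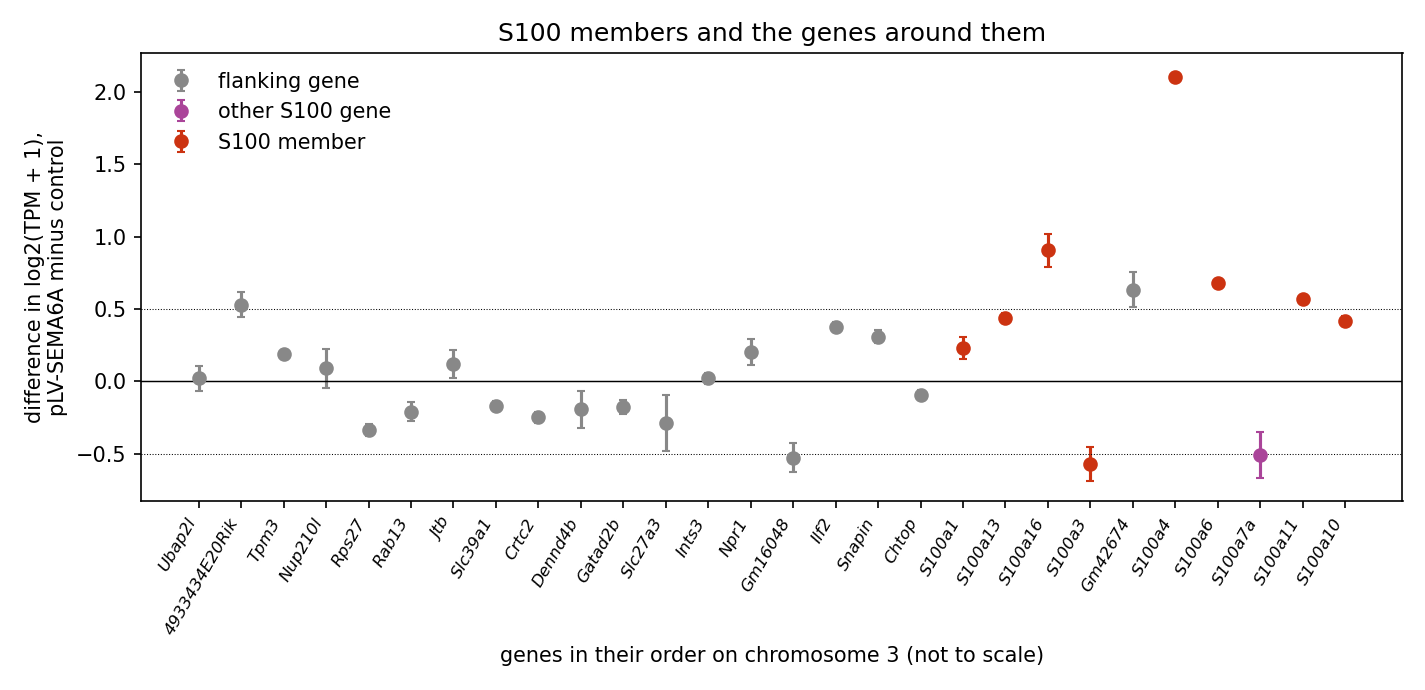
The difference in log2(TPM + 1), pLV-SEMA6A minus control, on the y axis (points, with the standard error from limma as bars) for tested genes in their order on chromosome 3 on the x axis, not to scale; genes listed at 0 in control are left out, and dotted lines mark 0.5 and −0.5. S100a4 stands at 2.10, with S100a3 (−0.57) the tested S100 gene before it and S100a6 (0.68) the one after it. S100a5, which lies between S100a4 and S100a6, was not tested. The flanking genes shown lie between −0.53 and 0.63, and the upper end is Gm42674, whose bases are shared with S100a3 and S100a4. Left out are Gm23723 (3.70, with overlapping libraries) and Gm43712 (2.53), which were listed at 0 in control and lie above S100a4. S100a11 and S100a10 belong to a separate block, beyond Flg and Tchh.

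S100 proteins act through partners, and 57 partner or related genes in 6 lists were examined, of which 42 were tested. In all, 3 were called higher and 1 lower, where 5.12% and 10.8% of all genes were, and the median log2 difference was 0.15 against −0.06 over all genes. At an adjusted p under 0.05 without a minimum difference, 20 were higher and 5 lower, where 19.5% and 28.2% of all genes were.

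Annexins, which bind membranes in the presence of calcium and several of which pair with an S100 dimer, differed in both directions. Of 12 annexin genes 9 were tested, with a median log2 difference of 0.17. Of these 2 were called higher and 1 lower, where 5.12% and 10.8% of all genes were. Anxa1, the partner of S100a11, was at 328, 334 and 319 TPM in control, against 495, 483 and 468 TPM in pLV-SEMA6A. It rose by 0.56 on the log2 scale (standard error 0.03, adjusted p = 3.1e-05 from limma), beside 0.57 for S100a11. Anxa2, the partner of S100a10, was at 711, 707 and 698 TPM in control, against 976, 972 and 979 TPM in pLV-SEMA6A. Its groups were well apart, and its log2 difference of 0.47 (standard error 0.02, adjusted p = 6.2e-06 from limma), beside 0.42 for S100a10, stayed under the minimum of 0.5, which it passed with each library centred on its median (0.56).

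Anxa9 was low and rose, at 4.56 ± 0.67 TPM in control against 7.94 ± 0.91 TPM in pLV-SEMA6A (SD, n = 3), a log2 difference of 0.69 (adjusted p = 0.00395 from limma). Anxa4 fell, at 58.0 ± 1.60 TPM in control against 39.8 ± 2.39 TPM in pLV-SEMA6A (SD, n = 3), a log2 difference of −0.53 (adjusted p = 0.000351 from limma). The fall of Anxa4 was −0.48 without pLV-SEMA6A replicate 3 and −0.44 with each library centred on its median, both under the minimum. Anxa5 was abundant, at 774 ± 5.78 TPM in control against 873 ± 20.2 TPM in pLV-SEMA6A (SD, n = 3). It was higher in every pLV-SEMA6A library, with a log2 difference of 0.17 (adjusted p = 0.00104 from limma) that was under the minimum. Anxa11, a partner of S100a6, had a log2 difference of −0.16 (adjusted p = 0.0676 from limma) and did not pass, beside 0.68 for S100a6.

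The targets of S100A4 and the genes of the annexin A2 platform, which brings plasmin to the cell surface, included no called gene. Myh9, the heavy chain of non-muscle myosin IIA to which S100A4 binds, was at 342 ± 9.60 TPM in control against 360.4 ± 8.497 TPM in pLV-SEMA6A (SD, n = 3). Its log2 difference was 0.076 (adjusted p = 0.0779 from limma), beside 2.10 for S100a4. Among the 6 S100A4 targets tested the median log2 difference was 0.06. At an adjusted p under 0.05 from limma without a minimum difference, 2 were higher, where 19.5% of all genes were. Ahnak, a giant scaffold held by annexin A2 and S100A10, was at 174 ± 3.15 TPM in control against 167 ± 6.59 TPM in pLV-SEMA6A (SD, n = 3), a log2 difference of −0.063 (adjusted p = 0.190 from limma) that became 0.031 with each library centred on its median. The 5 tested genes of the annexin A2 and plasmin list had a median of −0.05, with 0 at an adjusted p under 0.05 from limma with or without a minimum difference.

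Cacybp, the partner of S100A6, was at 133 ± 5.24 TPM in control against 159 ± 2.43 TPM in pLV-SEMA6A (SD, n = 3). Its log2 difference of 0.26 (adjusted p = 0.00143 from limma), beside 0.68 for S100a6, was under the minimum. The 5 tested targets of S100A6, S100A1 and S100A13 had a median log2 difference of 0.26, with 0 called. Without the minimum, 4 were higher at an adjusted p under 0.05 from limma, where 19.5% of all genes were. The ryanodine receptor genes Ryr1 and Ryr2, targets of S100A1 in muscle, were at or near 0.

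Of the surface receptors of S100 proteins, no tested gene passed both thresholds. Ager, which encodes RAGE, was at 1.29, 1.36 and 1.54 TPM in control, against 0.53, 0.46 and 0.74 TPM in pLV-SEMA6A. Its groups were separate, but its mean was under the filter. With no filter on low values it was past both thresholds, with a log2 difference of −0.61 (adjusted p = 0.0137 from limma). When 1 pLV-SEMA6A library was left out, Ager passed the filter because control, where it was higher, then weighed more in the mean. Nothing is read from those fits, which gave log2 differences of −0.59 without replicate 1, −0.55 without replicate 2 and −0.68 without replicate 3. The fit without replicate 3 was past both thresholds. Tlr4 was at 20.5 ± 1.45 TPM in control against 20.99 ± 1.08 TPM in pLV-SEMA6A (SD, n = 3), a log2 difference of 0.037 (adjusted p = 0.675 from limma), and its sign changed when control replicate 2 or pLV-SEMA6A replicate 2 was left out. Bsg, which encodes basigin, was abundant at 674 ± 17.3 TPM in control against 589 ± 8.90 TPM in pLV-SEMA6A (SD, n = 3), a log2 difference of −0.19 (adjusted p = 0.00114 from limma). Nptn, which encodes neuroplastin and was picked out after its values were seen, was at 298, 295 and 342 TPM in control, against 433, 412 and 402 TPM in pLV-SEMA6A. Its groups did not overlap, and its log2 difference was 0.42 (standard error 0.06, adjusted p = 0.00205 from limma), under the minimum. Among the 5 receptor genes tested 0 were called, Nptn was higher and Bsg lower without a minimum difference, and with each library centred on its median 1 was called higher.

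Among 13 EF-hand calcium sensors outside the family 12 were tested. Their median log2 difference was 0.15. At an adjusted p under 0.05 from limma without a minimum difference, 7 were higher and 2 lower, where 19.5% and 28.2% of all genes were.

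**Figure D4:**
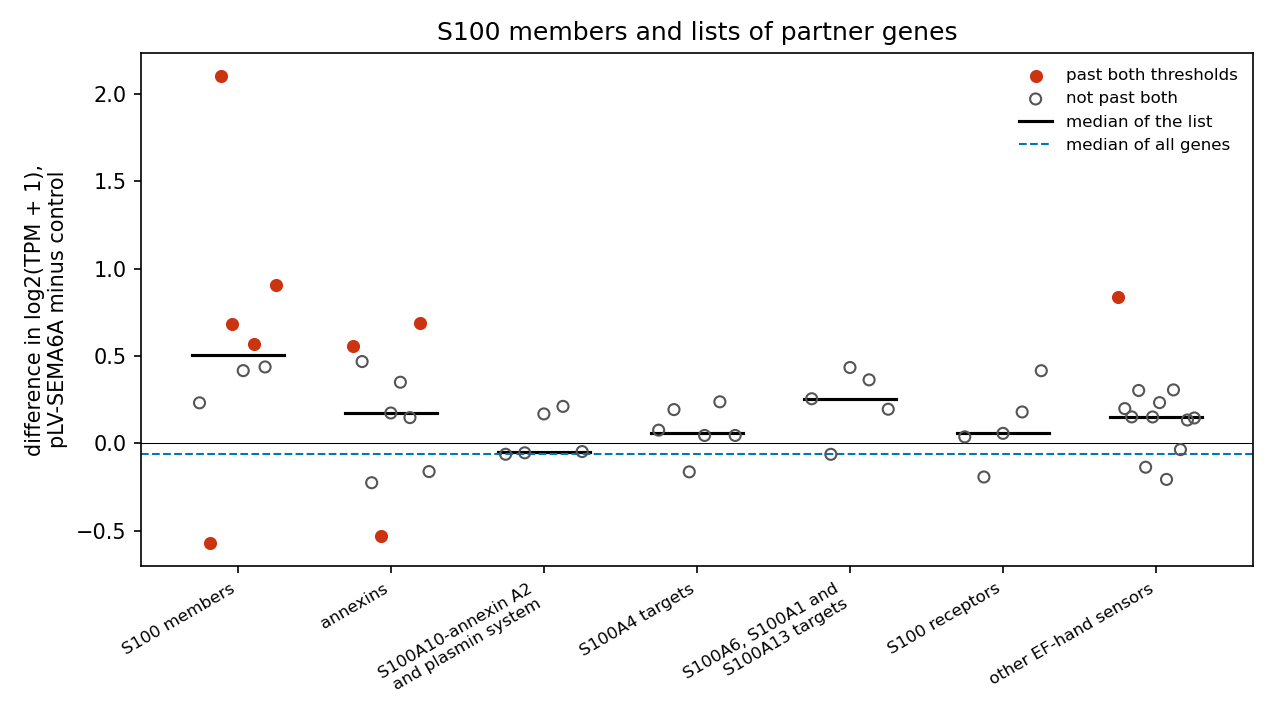
The difference in log2(TPM + 1), pLV-SEMA6A minus control, on the y axis for the tested S100 members and the tested genes of 6 lists on the x axis, with filled points for genes past both thresholds, a black bar at each list's median and a dashed line at the median of all genes (−0.06). The medians run from −0.05 for the annexin A2 and plasmin list to 0.50 for the S100 members, which were chosen with this contrast known.

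S100a4 is also used to mark fibroblasts and leukocytes, so markers of both were set beside it. Of 8 leukocyte markers, Itgam, Adgre1, Cd3e and S100a9 were listed at 0 in all libraries, Ptprc reached at most 0.04 TPM, and the 8 summed to between 0.82 and 2.06 TPM in control and between 0.97 and 1.27 TPM in pLV-SEMA6A. Of 8 fibroblast markers 5 had a mean of at least 1 TPM, and the sum of all 8 was 126 to 143 TPM in control against 184 to 189.9 TPM in pLV-SEMA6A, of which Col3a1 made up 110 to 125 TPM and 168 to 176 TPM. Col1a1 was at 1.19 to 1.39 TPM in control against 3.33 to 3.80 TPM in pLV-SEMA6A, while Pdgfrb was at 10.2 to 10.7 and 6.53 to 6.92 TPM. Pdgfra was at 1.54 to 2.14 and 0.63 to 0.92 TPM. Col1a1 and Col3a1 rose (adjusted p = 0.000681 and 0.000345 from limma), Pdgfrb fell (adjusted p = 0.000442 from limma), and Dcn did not pass (adjusted p = 0.692 from limma). Pdgfra, which passed the filter only through control, was lower and is given no p-value. Of the markers under the filter, Thy1 was at 0.79 to 1.49 and 0.49 to 0.64 TPM, Col1a2 at 0.33 to 0.51 and 0.69 to 1.13 TPM, and Lum at or near 0. The list moved in both directions, and its part in the difference of S100a4 was not tested. Endothelial markers were at or near 0, with Cdh5 listed at 0 in all libraries, and of the colon markers Cdx1 and Cdx2 were listed at 0 in all libraries. Lgals4 was at 1.78 to 2.33 TPM in control against 0 to 0.81 TPM in pLV-SEMA6A. It passed the filter only through control and is given no p-value. In such bulk samples a change in the number of expressing cells and a change of RNA per cell cannot be told apart.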

How the data were processed

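RNA-seq was analysed from 3 control and 3 pLV-SEMA6A libraries of SL4 cells. Libraries were made by the authors from oligo(dT)-captured mRNA that was fragmented and randomly primed, for Illumina sequencing. The authors deposited TPM per library for Ensembl genes, with 2 decimals, and a mean TPM per group, which was not used. The submitters' processing notes list HISAT, Bowtie2, RSEM and mm39, with no versions, and the annotation and strand are not given in the sources used here. TPM keeps no depth, so counting intervals and detection limits could not be given.

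log2(TPM + 1) was fitted with limma 3.58.1 (R 4.3.3), with trend and no covariate beside group, over the 12510 genes whose mean reached 1 TPM, with Benjamini-Hochberg adjustment over all of them. A call needed both an adjusted p under 0.05 and a log2 difference over 0.5 in size, the criterion the study gives for limma under enrichment analysis. For its RNA-seq and proteomics data the study names DESeq2, so the calls here are not those of the study. The labels do not say that libraries came from separate cultures, so p-values measure only the spread between these libraries, and an exact permutation test of 3 against 3 cannot go below 0.1.

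The members, lists and tests were chosen with earlier results of these data known. Named were the 10 members, all other S100 genes, called genes of each list (at most 6 by size) with Anxa1, Anxa2, Anxa5, Anxa11, Ahnak, Myh9, Cacybp, Ager, Tlr4 and Bsg, and of the flanking genes those called and the nearest. The result of 1 called gene of the lists is not reported here. Genes sharing sequence with members, marker genes, and Gm23723 as a tested gene left out of the figure of gene order, were named beside these. Gene order and transcripts came from GENCODE M21 on GRCm38, matched by identifier for 97.1% of the listed genes, and promoters from RefSeq on GRCm38.p6. Shared sequence was counted as 31-base stretches on both strands. Alternatives were a pseudocount of 0.1, no filter or a mean of at least 5 TPM, the replicate number as a block, centring each library on its median, limma without trend, other minimum differences and leaving out each library.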

Additional observations from a re-analysis of the deposited data

How the results depend on the processing

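The minimum difference moved the counts most. Without it, 5959 of all genes, 8 members, 25 partner genes and 13 flanking genes had an adjusted p under 0.05 from limma, whereas a minimum raised to 1 left 385, 1, 0 and 1 calls. The count of other S100 genes, which rests on S100a7a, was 1 with limma as described and 0 with no filter, with a mean of at least 5 TPM, with the replicate block, with each library centred on its median, with a minimum of 1 and without any 1 library (0 to 0). Centring on the median gave S100a4 a log2 difference of 2.19, Ahnak one of 0.031 and Chtop one of 0.0012. Leaving out 1 library gave 1900 to 1975 calls over all genes, 4 to 5 over the members, 4 to 4 over the partner genes and 3 to 5 over the flanking genes, S100a4 differences of 2.08 to 2.12 and ratios of the S100 sum of 1.91 to 1.93. The partner genes called were not always the same: without pLV-SEMA6A replicate 3 Anxa4 was lost and Ager, which that fit let past the filter, was called lower. For Tlr4 leaving out 1 library gave −0.013 to 0.084, with −0.0026 without pLV-SEMA6A replicate 2. The cause was not tested.

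Same-numbered libraries showed no shared deviation from their groups (mean correlation −0.06, from −0.08 to −0.02), so the numbers were not taken to pair them. With the replicate block 1924 genes were called in place of 1987, the same number of members (5), and among the named genes the block changed the call of S100a7a only. TPM hides depth, so low genes such as S100a5, S100a8, S100a7a and Ager cannot be given a counting error.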
